A study of Arabidopsis thaliana with 24 samples.

Results

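The leaf polarity genes AS1, AS2, KAN1, FIL, YAB2, YAB3, YAB5, PHB, PHV and REV were taken as the probes whose accession or locus led to the corresponding 10 Arabidopsis loci. They accounted for 10 of the 34290 genes and 19 of the 43603 probes of the array, with 1 to 3 probes per gene. Their loci were AT2G37630 (AS1), AT1G65620 (AS2), AT5G16560 (KAN1), AT2G45190 (FIL), AT1G08465 (YAB2), AT4G00180 (YAB3), AT2G26580 (YAB5), AT2G34710 (PHB), AT1G30490 (PHV) and AT5G60690 (REV).

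A leaf primordium acquires an upper (adaxial) and a lower (abaxial) side soon after it leaves the shoot apical meristem. The class III homeodomain-leucine zipper proteins PHB, PHV and REV, whose transcripts are cleaved under a microRNA on the abaxial side, and the AS1-AS2 complex act on the adaxial side. KANADI proteins and the YABBY proteins FIL, YAB3, YAB2 and YAB5 are known from the abaxial side. YABBY genes are generally described as genes of shoot lateral organs, whereas class III homeodomain-leucine zipper and KANADI genes also act in the vascular tissue of roots.

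Roots of Col-0 plants were hybridised to 24 one-colour Agilent arrays, 3 from each of 8 groups, namely a control line, ISH1, ISH2 and ISH1&2, each without or with 5 µM estradiol. The study refers to ISH1&2 as ATHB25/REM7-ind and asked whether the roots acquire shoot characters when a zinc-finger homeodomain protein, ATHB25, and a B3-domain protein, REM7, are induced together. All plants were selected on hygromycin for 8 days before transfer to plates with or without estradiol and were 15 days old at harvest. The transgenes are driven by LexA operators through an estradiol-activated factor under a constitutive viral promoter, so that induction is not restricted to a root tissue. The labels do not say what the control line carries, which gene ISH1 or ISH2 carries, or how many independent transformants stand behind a line, and the material was whole root, without the shoot. The study's design text calls the triplicates biological, but no label names separate cultures, so the tests measure the spread between these samples.

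Levels are log2 signals relative to the 75th percentile of the same array, so 0 is the 75th percentile, and levels of different probes are not comparable. ATHB25 rose from -4.46 ± 0.23 to 5.23 ± 0.07 (SD, n = 3) with estradiol in ISH1 and from -0.64 ± 0.52 to 4.24 ± 0.11 (SD, n = 3) in ATHB25/REM7-ind. REM7 rose by 6.11 log2 units in ISH2 and by 2.67 in ISH1. In ATHB25/REM7-ind, REM7 was already at 4.56 without estradiol, against -1.64 in the control, and moved by 0.10 (limma, adjusted p = 0.848), so that the uninduced roots of this line already held REM7 transcripts. ATHB25 was at -8.90 in the uninduced control, below background. Without estradiol the other lines exceeded that control for ATHB25, at least 15.6-fold in ISH1, 2.31-fold in ISH2 and 219-fold in ATHB25/REM7-ind. The array of ISH1 uninduced replicate 1 stood apart, with 91.0% of its probes well above background compared with 76.9% to 84.8% on the other 23 arrays. Values of the brightest probes that rest on it are also given without it. All 4 lines of a treatment and replicate number shared a slide, so that a response to estradiol was measured between slides and a difference between lines within them, while each line also kept 1 position on its slides. In 2 control arrays the description contradicts the title about the treatment, and the titles were followed.

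Probes for AS1, AS2, KAN1, PHB, PHV and REV were well above background on all 24 arrays (for AS2, the brighter of the 2 probes). The 4 YABBY genes behaved differently. The brighter FIL probe was above background on 3 of 24 arrays, that of YAB3 on 6, that of YAB5 on 9 and that of YAB2 on 11. All 10 genes passed the filter on dim probes, but FIL and YAB3 passed only through the uninduced ISH1 arrays and YAB2 and YAB5 only through ISH1 with and without estradiol and ATHB25/REM7-ind with estradiol. A YABBY gene could therefore pass only by being brighter in such a group, so neither a count over the 10 genes nor the p-value of one of these 4 in a comparison with such a group is independent support for a difference.

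With estradiol, 4 of the 10 genes rose and 1 fell in ATHB25/REM7-ind, where 31.6% of all 27816 genes tested rose and 33.0% fell (limma across all genes, two-sided, Benjamini-Hochberg adjusted p under 0.05 as in every call below). AS2, YAB2, YAB5 and KAN1 rose and PHB fell. In ISH1, 1 gene rose and 5 fell, against 26.3% and 36.4% of all genes. In ISH2, 3 rose and 3 fell, against 27.3% and 21.9%. None of the 10 passed the test in the control line, where 7.14% of all genes rose and 7.85% fell. Of the 6 genes measured on every array, 0, 1, 3 and 2 rose and 0, 3, 3 and 1 fell in the control, ISH1, ISH2 and ATHB25/REM7-ind, and their median response was -0.02, -0.15, 0.09 and 0.11, against -0.00, -0.08, 0.04 and -0.01 over all genes. These shares do not set the 10 genes apart from the rest of the array, and the description below concerns which genes moved, in which line and by how much.

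**Figure D1:**
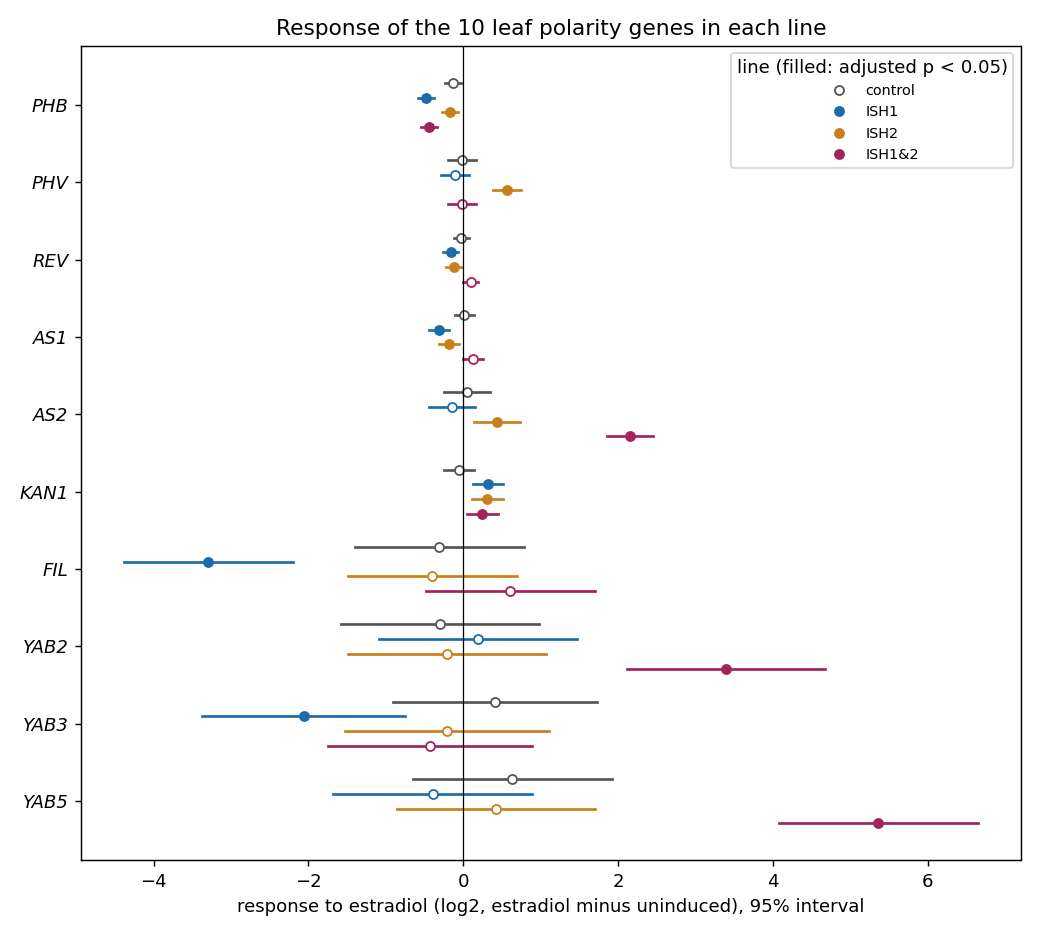
Response to estradiol (log2, estradiol minus uninduced) of the 10 leaf polarity genes in the 4 lines, with 95% confidence intervals from the fit. Filled symbols passed the adjusted threshold. AS2, YAB2 and YAB5 lay far to the right in ATHB25/REM7-ind (marked ISH1&2 in all plots), and FIL and YAB3 to the left in ISH1.

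YAB5 and YAB2, YABBY transcription factors of leaf primordia, were well above background with estradiol in ATHB25/REM7-ind and in none of the control arrays. YAB5 stood at -5.41, -5.39 and -5.37 on the 3 ATHB25/REM7-ind arrays with estradiol. Without estradiol the same line gave -10.87, -10.64 and -10.74, none of which was above background. The groups were far apart, and because the uninduced signal was only a bound, the rise was at least 10.1-fold (adjusted p = 3.76e-07). A bound here sets the bright group's mean against, for each dim array, the higher of the probe's own value and the lowest signal of any probe whose spots were all well above background. The second YAB5 probe gave -6.94, -6.88 and -6.94 with estradiol and a rise of at least 3.52-fold (adjusted p = 0.000239).

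In the control line, YAB5 was at -10.09, -10.34 and -10.59 without and at -9.89, -8.43 and -10.79 with estradiol, below background on all 6 arrays, as it was on all 6 arrays of ISH2. With estradiol, ATHB25/REM7-ind exceeded the control at least 8.31-fold (adjusted p = 5.56e-06). ISH1 was the other line with YAB5 signal. It gave -5.15, -6.74 and -8.61 without and -7.47, -7.44 and -6.79 with estradiol, so that its groups overlapped and its response of -0.40 did not pass the test (adjusted p = 0.591). The uninduced spread decided the sign of that response, which was 0.44 without ISH1 uninduced replicate 1 (adjusted p = 0.487) and -1.29 without replicate 3 (adjusted p = 0.0361). With estradiol, ISH1 exceeded the control at least 2.32-fold (adjusted p = 0.00182), and ATHB25/REM7-ind exceeded ISH1 by 1.84 ± 0.61 log2 units (SE, adjusted p = 0.0149). The array that stood apart gave none of these levels, but it entered the estimate of the spread behind the SE and the p-values. These comparisons with estradiol were added after the data had been seen. Of all genes, 31.3% were higher in ATHB25/REM7-ind, and 27.5% in ISH1, than in the control with estradiol, and 28.0% were higher in ATHB25/REM7-ind than in ISH1.

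YAB2 was at -5.38, -5.74 and -5.98 with estradiol in ATHB25/REM7-ind. Without estradiol it was at -9.42, -9.66 and -8.21, of which only replicate 3 was above background. The 2 groups did not overlap and the fitted rise was 3.40 ± 0.61 (SE, adjusted p = 8.25e-05). The second probe, below background on the 3 uninduced arrays, rose at least 7.45-fold (adjusted p = 3.99e-07), and the remaining probe rose at least 2.61-fold (adjusted p = 2.78e-05). All 3 probes of YAB2 thus moved the same way in this line.

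YAB2 was also detected in ISH1 under both conditions. It was at -5.36, -7.51 and -8.05 without and at -6.65, -6.81 and -6.87 with estradiol. The ISH1 groups overlapped and the response was 0.19 (adjusted p = 0.803), or 1.00 without ISH1 uninduced replicate 1 (adjusted p = 0.119). With estradiol, YAB2 in ISH1 exceeded the control at least 3.27-fold (adjusted p = 0.000353), and in ATHB25/REM7-ind at least 6.90-fold (adjusted p = 1.11e-05). The gap between ATHB25/REM7-ind and ISH1 with estradiol, 1.08, did not pass the test (95% interval -0.20 to 2.36, adjusted p = 0.139). In ISH2, 1 of 6 arrays was above background for YAB2, uninduced replicate 1 at -8.03, and the response was -0.21 (adjusted p = 0.808).

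FIL and YAB3, a pair of closely related YABBY genes that specify abaxial fate, did not follow YAB2 and YAB5. FIL was at -5.44, -7.48 and -8.10 on the uninduced ISH1 arrays and not above background on any of the other 21, which ranged from -10.82 to -9.13. The ISH1 value with estradiol was at least 3.60-fold lower (adjusted p = 2.37e-05), and without ISH1 uninduced replicate 1 at least 2.09-fold lower (adjusted p = 4.61e-05). FIL had to be bright in uninduced ISH1 to be tested at all, so these p-values only describe the gap, and the same holds for YAB3. The second FIL probe was above background on only 1 array, ISH1 uninduced replicate 1, at -6.57, and did not pass the filter.

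YAB3 was at -4.87, -7.97 and -7.74 on the uninduced ISH1 arrays. With estradiol ISH1 gave -8.91, -8.99 and -8.89, of which replicate 3 was above background. The groups did not overlap, and the response of -2.06 ± 0.63 (SE) passed the test (adjusted p = 0.00807), but at -1.07 without ISH1 uninduced replicate 1 it did not (adjusted p = 0.0563). Outside ISH1, only control estradiol replicate 2 at -7.90 and ATHB25/REM7-ind estradiol replicate 3 at -8.68 were above background. The second YAB3 probe was not above background on any of the 24 arrays. In ATHB25/REM7-ind with estradiol, then, FIL was above background on 0 and YAB3 on 1 of 3 arrays, where YAB2 and YAB5 were on all 3.

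All 4 YABBY genes were above background on the 3 uninduced ISH1 arrays and on no uninduced control array. Uninduced ISH1 exceeded the uninduced control at least 2.99-fold for YAB5 (adjusted p = 0.00836) and at least 2.66-fold for FIL (adjusted p = 0.0157). Both genes, like YAB2 and YAB3, were tested only because this group or others made them bright, and the p-values are descriptions. By their brightest probes these 2 genes alone of the 10 were higher in this comparison, in which 0.640% of all genes were higher and 0.126% lower. YAB3 (at least 2.94-fold, adjusted p = 0.0912) and YAB2 (at least 2.72-fold, adjusted p = 0.0699) did not pass. Which genes passed depended on the probe, since the second YAB2 probe passed (at least 2.71-fold, adjusted p = 0.00565), whereas its remaining probe (adjusted p = 0.0673) and the second YAB5 probe (adjusted p = 0.150) did not. ISH1 uninduced replicate 1 was the brightest of the 3 arrays for each of the 4 genes. Without it the bounds fell to 1.67-fold for YAB5 (adjusted p = 0.0388), 1.54-fold for FIL (adjusted p = 0.0551), 1.56-fold for YAB2 (adjusted p = 0.319) and 1.47-fold for YAB3 (adjusted p = 0.338). The part of this array's high share of probes above background in these values was not tested. None of the 10 genes passed in uninduced ISH2 or uninduced ATHB25/REM7-ind against the control, where 0.313% and 4.17% of all genes were higher and 0.338% and 5.45% were lower.

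**Figure D2:**
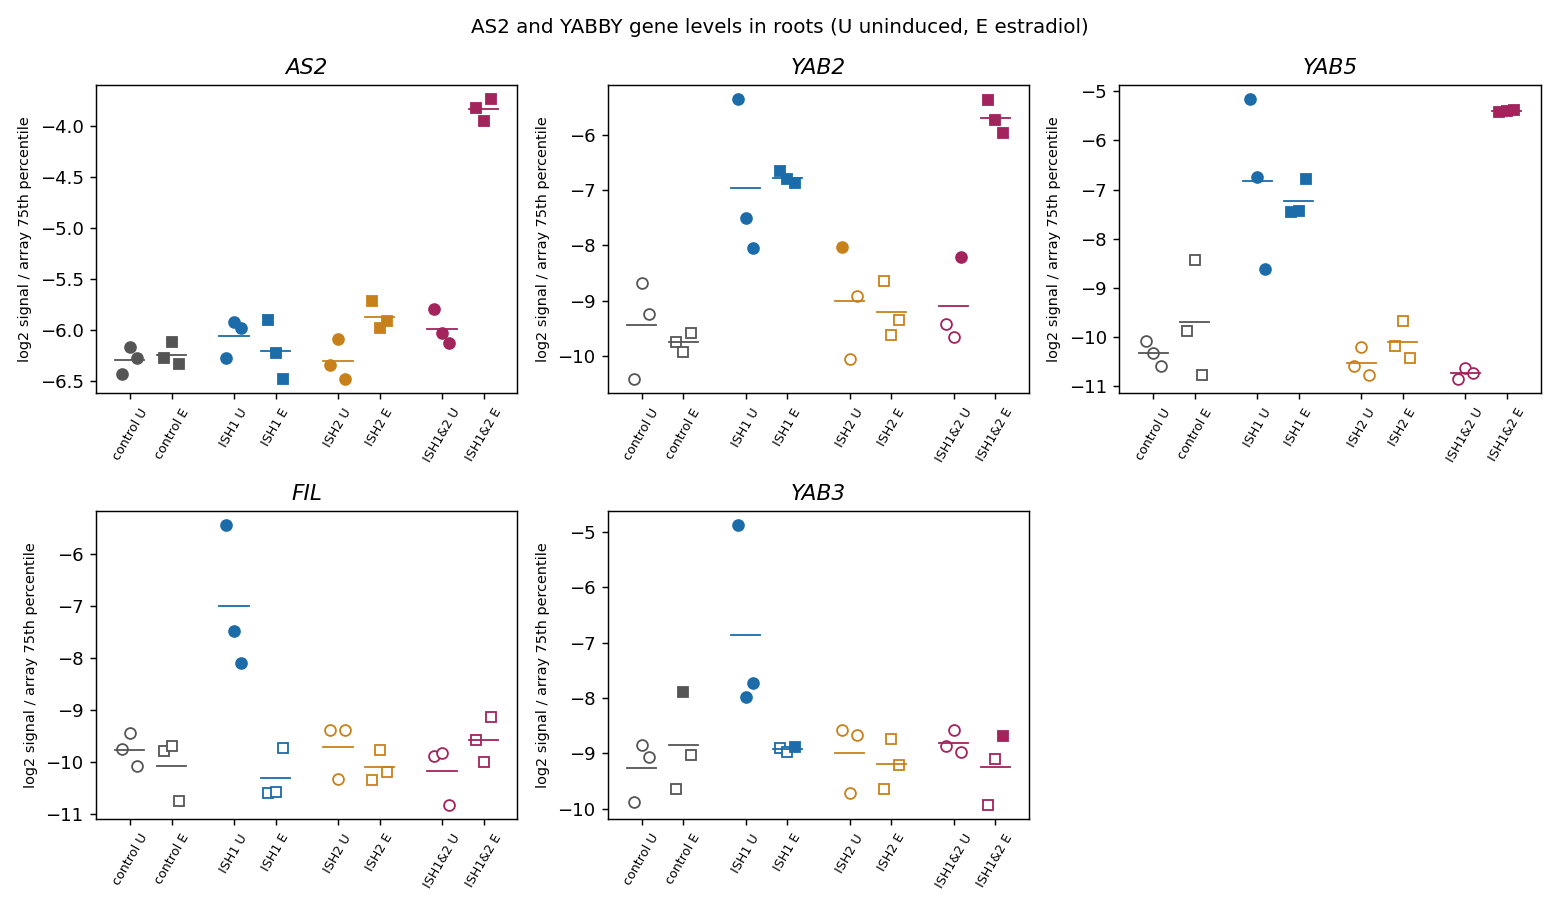
Level (log2 relative to the 75th percentile of the array) of AS2, YAB2, YAB5, FIL and YAB3 on each of the 24 arrays, with uninduced arrays as circles, estradiol arrays as squares and group means as bars. Filled symbols are well above background and open symbols are not. AS2 stands out in ATHB25/REM7-ind with estradiol, YAB2 and YAB5 are also filled in ISH1, and FIL is filled only in uninduced ISH1.

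AS2, a LOB-domain protein that works with AS1 to repress KNOX genes in leaf primordia, rose in ATHB25/REM7-ind and was above background on every array. It went from -5.80, -6.03 and -6.13 to -3.82, -3.95 and -3.73 with estradiol. These 3 values were above all 21 others, which lay between -6.48 and -5.72. The rise was 2.15 ± 0.14 log2 units (SE), or 4.44-fold (adjusted p = 1.97e-10). It exceeded the response of the control by 2.1 (adjusted p = 6.67e-08), where 25.2% of all genes had a higher and 26.8% a lower response than in the control.

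In the control line AS2 was at -6.43, -6.16 and -6.28 without and at -6.27, -6.11 and -6.33 with estradiol, and in ISH1 at -6.28, -5.92 and -5.98 and at -5.90, -6.23 and -6.48. Both pairs of groups overlapped. In ISH2 it was at -6.35, -6.09 and -6.48 without and at -5.72, -5.98 and -5.92 with estradiol, a rise of 0.43 ± 0.14 (SE, adjusted p = 0.0157) with no overlap. That rise did not exceed the control's beyond the test's threshold, and the second, dimmer AS2 probe was above background on only 1 of the 6 ISH2 arrays and does not bear on it. In ATHB25/REM7-ind the second probe reached -6.75, -7.09 and -6.72 with estradiol and rose by 2.19 ± 0.59 (SE, adjusted p = 0.00329). With estradiol it was at least 3.1-fold above the control, in which none of its arrays was above background.

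AS1, the MYB-type partner of AS2, moved far less and in another pattern. In ISH1 it fell from -1.44, -1.36 and -1.55 to -1.77, -1.78 and -1.75, by 0.31 ± 0.06 log2 units (SE, adjusted p = 0.000232), or by 0.31 without ISH1 uninduced replicate 1 (adjusted p = 0.00115). In ISH2 it fell from -1.57, -1.38 and -1.49 to -1.58, -1.81 and -1.60 (-0.18, adjusted p = 0.0191). Neither pair of groups overlapped, although the ISH2 groups came within 0.01 of each other. In ATHB25/REM7-ind it was at -1.57, -1.48 and -1.62 without and at -1.45, -1.43 and -1.43 with estradiol, a difference of 0.12 that did not pass (adjusted p = 0.0908). In the control it was at -1.38, -1.46 and -1.51 and at -1.44, -1.43 and -1.44 (0.01, adjusted p = 0.917). Hence the partners differed in ATHB25/REM7-ind, where AS2 rose and AS1 stayed within 0.25 log2 units of its uninduced level by the upper end of the 95% interval.

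The fall of AS1 in ISH1 exceeded the control's response by 0.33 (adjusted p = 0.00445), and by 0.32 without ISH1 uninduced replicate 1 (adjusted p = 0.00958). In this comparison of responses, 20.4% of all genes were higher and 27.8% lower in ISH1, and 1 of the 10 genes, KAN1, was higher and 4, namely AS1, FIL, YAB3 and PHB, were lower. Among the 6 genes measured on every array, 1 was higher and 2 were lower. Without ISH1 uninduced replicate 1, FIL (-2.20, adjusted p = 0.00321) and PHB (-0.36, adjusted p = 0.000838) still passed, and YAB3 (-1.48, adjusted p = 0.0601) did not.

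PHB, an adaxial class III homeodomain-leucine zipper factor, fell in all 3 inducible lines. In ATHB25/REM7-ind it went from 1.40, 1.37 and 1.32 to 0.90, 0.95 and 0.92, and in ISH1 from 1.43, 1.47 and 1.47 to 1.08, 0.94 and 0.92. In ISH2 the values were 1.37, 1.44 and 1.39 without and 1.19, 1.23 and 1.25 with estradiol. No pair of groups overlapped. The responses were -0.44 in ATHB25/REM7-ind (adjusted p = 2.61e-07), -0.48 ± 0.05 (SE) in ISH1 (adjusted p = 1.26e-07, or -0.49 without ISH1 uninduced replicate 1, adjusted p = 8.01e-07) and -0.18 in ISH2 (adjusted p = 0.00589).

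The control line itself gave 1.46, 1.40 and 1.61 without and 1.39, 1.35 and 1.31 with estradiol, a difference of -0.13 (adjusted p = 0.0743). Relative to it, PHB fell by 0.31 in ATHB25/REM7-ind (adjusted p = 0.00104) and by 0.34 in ISH1 (adjusted p = 0.000502), but the ISH2 difference of -0.04 did not pass (adjusted p = 0.742). The responses of ATHB25/REM7-ind and ISH1 differed by 0.03, with a 95% interval from -0.11 to 0.18 (adjusted p = 0.719).

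PHV, the closest relative of PHB, was high in a single group. With estradiol in ISH2 it was at 1.73, 1.33 and 1.40, above all other 21 arrays, which lay between 0.75 and 1.09. Without estradiol ISH2 gave 0.93, 0.94 and 0.89. The rise was 0.57 ± 0.09 (SE, adjusted p = 2.83e-05) and exceeded the control's response by 0.58 (adjusted p = 0.00174), in a comparison in which 10.1% of all genes had a higher and 11.1% a lower response, and PHV was the only 1 of the 10 that passed. With estradiol, ISH2 exceeded the control by 0.52 (adjusted p = 9.23e-05), a comparison added after the data had been seen in which 21.5% of all genes were higher.

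The other 2 PHV probes, given in the order of their mean level and also above background on all 24 arrays, gave smaller values. For them, ISH2 moved by 0.13 (adjusted p = 0.279) and 0.16 (adjusted p = 0.139), whereas the control moved by -0.21 (adjusted p = 0.145) and -0.37 (adjusted p = 0.0100). Against the control, the ISH2 response was 0.34 (adjusted p = 0.0808) and 0.53 (adjusted p = 0.00473). The call of a rise in ISH2 therefore rested on 1 of 3 probes, while the difference from the control passed for 2 of 3. In ISH1 the first probe gave -0.10 (adjusted p = 0.314), and in ATHB25/REM7-ind it gave 0.83, 0.81 and 0.92 without and 0.85, 0.82 and 0.82 with estradiol (-0.02, adjusted p = 0.857). Both fell in ISH1, by 0.34 (adjusted p = 0.00466) and 0.28 (adjusted p = 0.0116), and the latter of them fell by 0.24 in ATHB25/REM7-ind (adjusted p = 0.0272).

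REV, which also acts in vascular patterning, changed little. In ISH1 it was at 1.20, 1.21 and 1.17 without and at 1.14, 0.99 and 0.96 with estradiol, a fall of 0.16 ± 0.05 log2 units (SE, adjusted p = 0.00525, or adjusted p = 0.0163 without ISH1 uninduced replicate 1). In ISH2 it was at 1.102, 1.11 and 1.20 and at 0.99, 1.102 and 0.95 (-0.12, adjusted p = 0.0399). In ATHB25/REM7-ind it was at 1.11, 1.096 and 1.13 and at 1.23, 1.16 and 1.24 (0.10, adjusted p = 0.0819). The ISH1 and ATHB25/REM7-ind groups did not overlap, the ISH2 groups met at 1.102, and the ISH2 call was lost under 10 of 38 alternatives. The control differed by -0.02 between conditions. Against its response, REV passed neither in ISH1 (-0.14, adjusted p = 0.0903) nor in ISH2 (-0.10, adjusted p = 0.354).

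KAN1, an abaxial GARP-family repressor, rose in the 3 inducible lines. It went from -2.03, -1.84 and -2.02 to -1.46, -1.63 and -1.85 in ISH1, from -1.93, -1.80 and -1.94 to -1.61, -1.75 and -1.38 in ISH2, and from -1.84, -1.91 and -1.82 to -1.68, -1.57 and -1.58 in ATHB25/REM7-ind. The groups overlapped in ISH1 only. The responses were 0.32 ± 0.09 (SE, adjusted p = 0.00714, or 0.28 and adjusted p = 0.0295 without ISH1 uninduced replicate 1), 0.31 (adjusted p = 0.0109) and 0.25 (adjusted p = 0.0286). The second probe gave 0.30 (adjusted p = 0.00522), 0.57 (adjusted p = 2.06e-05) and 0.45 (adjusted p = 0.000126).

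In the control, KAN1 was at -1.90, -1.82 and -1.87 without and at -1.80, -2.01 and -1.94 with estradiol (-0.05, adjusted p = 0.763), and its second probe gave 0.17 (adjusted p = 0.192). Against the control's response, the first probe passed only in ISH1 (0.37, adjusted p = 0.0283), where 12 of 39 alternatives lost the call, among them the one without ISH1 uninduced replicate 1 (0.34, adjusted p = 0.0611). The second probe passed only in ISH2 (0.40, adjusted p = 0.0217). Whether KAN1 responded more than in the control was thus not settled by the pair of probes in any line.

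**Figure D3:**
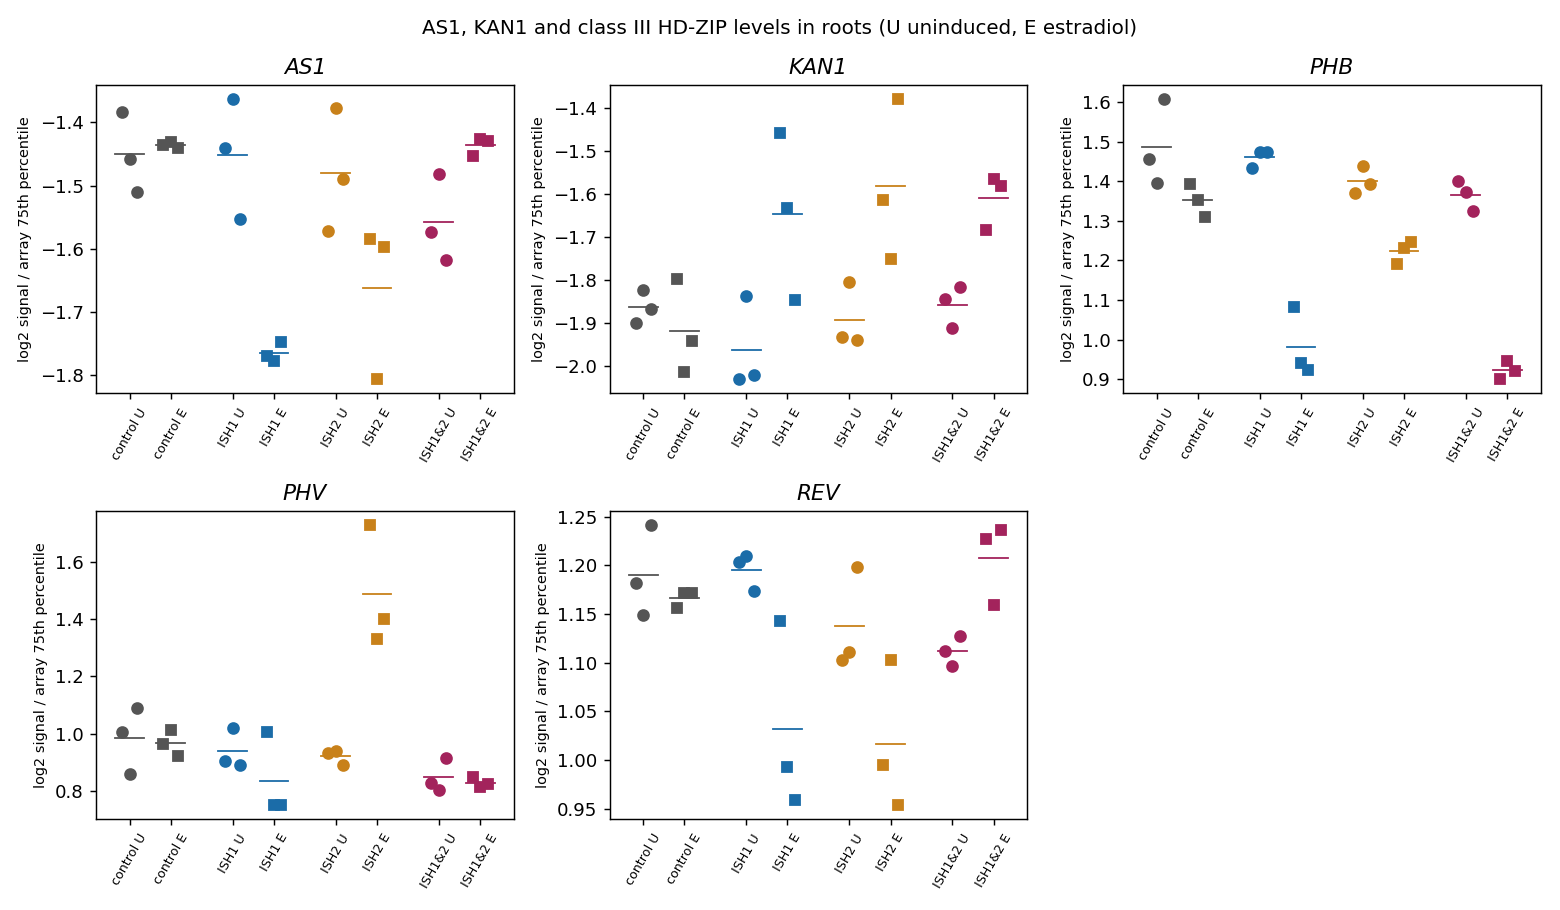
Level (log2 relative to the 75th percentile of the array) of AS1, KAN1, PHB, PHV and REV on each of the 24 arrays, with uninduced arrays as circles, estradiol arrays as squares and group means as bars. PHB falls with estradiol in the 3 inducible lines, and PHV is above all other arrays only in ISH2 with estradiol.

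**Figure D4:**
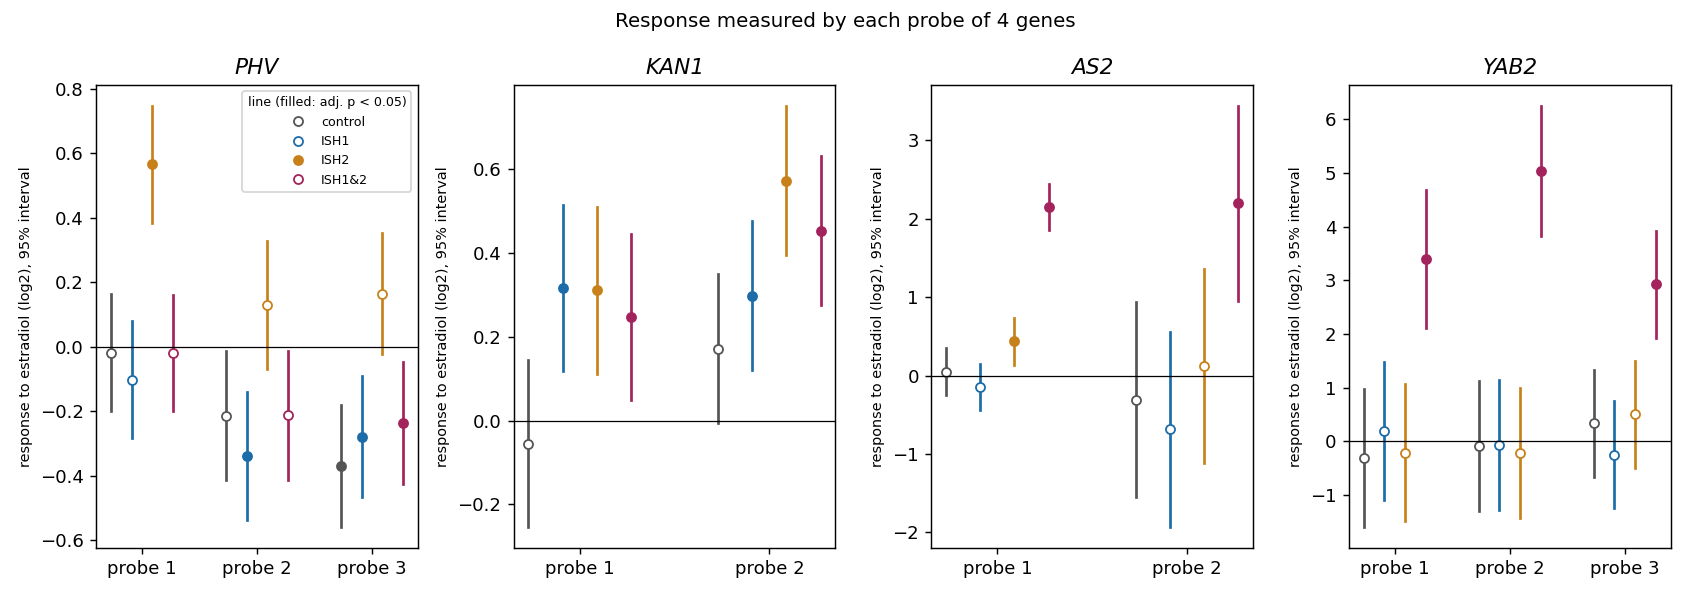
Response to estradiol (log2, with 95% confidence intervals) of each probe of PHV, KAN1, AS2 and YAB2 in the 4 lines. The probes of YAB2 and of AS2 moved together in ATHB25/REM7-ind, whereas the 0.57 of the first PHV probe in ISH2 stood beside 0.13 and 0.16 for the other 2.

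To see where ATHB25/REM7-ind differed from the lines with a single inducible gene, the responses were compared directly. The inductions themselves were unlike. REM7 moved by 0.10 with estradiol in ATHB25/REM7-ind, against 6.11 in ISH2 and 2.67 in ISH1. ATHB25 rose by 4.89 in ATHB25/REM7-ind and by 9.69 in ISH1. Against ISH1, 6 of the 10 genes had a higher response and none a lower one, where 23.5% and 22.9% of all genes did. The higher ones were AS1, AS2, FIL, YAB2, YAB5 and REV. FIL, YAB2 and YAB5 passed the filter only through groups of this comparison, so the count is not independent support. Of the 6 genes measured on every array, 3 were higher and 0 lower. Against ISH2, 5 were higher and 2 lower, where 23.3% and 31.4% of all genes were. AS1, AS2, YAB2, YAB5 and REV were higher, and PHB and PHV were lower. Among the 6 genes measured on every array, 3 were higher and 2 lower. The differences were 5.76 for YAB5 (adjusted p = 2.18e-05), 3.20 for YAB2 (adjusted p = 0.00491) and 2.30 for AS2 (adjusted p = 2.56e-08) against ISH1, and 4.94, 3.60 and 1.72 against ISH2. Without ISH1 uninduced replicate 1 the values against ISH1 were 4.92, 2.40 and 2.40, beside 3.12 for FIL, 0.43 for AS1 and 0.26 for REV, and all 6 passed. YABBY values of this kind are fitted differences between groups of which some were not above background, so their size is not a fold.

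ATHB25/REM7-ind was also compared with the sum of the ISH1 and ISH2 responses, each taken relative to the control. In ATHB25/REM7-ind, REM7 did not respond to estradiol and ATHB25 rose less than in ISH1. A distance from this sum therefore does not measure the effect of inducing both genes together. Of the 10 genes, 6 were above that sum and 1 was below it, against 20.2% and 21.8% of all genes. The YABBY genes in that count passed the filter only through groups that enter the sum or the response. Among the 6 genes measured on every array, 3 were above the sum and 1 was below it. AS2 exceeded it by 1.91 (adjusted p = 2.06e-05), YAB5 by 5.97 (adjusted p = 0.000622), AS1 by 0.63 (adjusted p = 0.000375) and REV by 0.36 (adjusted p = 0.00474). For YAB2 the excess of 3.11 (adjusted p = 0.0484) was lost under 22 of 39 alternatives, including the one without ISH1 uninduced replicate 1 (2.30, adjusted p = 0.0721). PHV lay 0.50 below the sum (adjusted p = 0.0253). Without that array the distance from the sum was 2.02 for AS2, 5.13 for YAB5, 3.21 for FIL, 0.63 for AS1, 0.35 for REV and -0.48 for PHV (adjusted p = 1.17e-05, 0.000339, 0.00223, 0.000781, 0.00816 and 0.0395). AS1 and REV had both fallen in ISH1 and in ISH2 and not in ATHB25/REM7-ind. Of these falls, only that of AS1 in ISH1 differed from the control's response beyond the threshold.

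Genes that act around the 10 were read from lists of known partners and targets. Beside the counts that follow, 31.6% of all genes rose and 33.0% fell in ATHB25/REM7-ind. In ISH1 26.3% rose and 36.4% fell, in ISH2 27.3% and 21.9%, and in the control 7.14% and 7.85%. The KNOX genes KNAT1, KNAT2, KNAT6 and STM all rose in ATHB25/REM7-ind, 4 of 4, with a median of 0.76. Of these, AS1-AS2 represses KNAT1, KNAT2 and KNAT6 in leaves, directly for some of them. STM, a shoot meristem gene, rose by 2.51 ± 0.39 (SE, adjusted p = 1.98e-05), to at least 5.21-fold above the control with estradiol. Without estradiol it was above background on only 1 array of ATHB25/REM7-ind, so 2.51 is a fitted value and not a fold. STM passed the filter only through ISH1 and ATHB25/REM7-ind with estradiol, so its p-value and its place in the 4 of 4 are descriptions. KNAT1 rose by 0.91 (adjusted p = 6.28e-07), from a level that was already 0.70 below the control's without estradiol (-1.95 ± 0.12 against -1.26 ± 0.10, SD, n = 3), and KNAT2 rose by 0.61 (adjusted p = 3.46e-06). In ISH1 and ISH2, 3 and 2 of the 4 fell and none rose, and in the control 1 fell. All 4 had a higher response in ATHB25/REM7-ind than in the control, ISH1 or ISH2. Without ISH1 uninduced replicate 1, 3 of the 4 again fell in ISH1 and all 4 again had a higher response in ATHB25/REM7-ind than there.

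Among all 5 class III homeodomain-leucine zipper genes, PHB and CNA (-0.29, adjusted p = 0.00227) fell in ATHB25/REM7-ind. In ISH1 4 of 5 fell (3 without ISH1 uninduced replicate 1), and in ISH2 1 rose and 2 fell. Against the control's response only PHB was lower in ISH1, with adjusted p = 0.0855 for CNA, 0.0903 for REV and 0.114 for ATHB8. The LITTLE ZIPPER gene ZPR1, which encodes a small partner that blocks these proteins, rose in every line. Its response was 0.81 ± 0.05 (SE) in ATHB25/REM7-ind (adjusted p = 1.81e-10), 1.46 in ISH1 and 0.85 in ISH2, and the control went from -2.85 ± 0.05 to -2.54 ± 0.03 (SD, n = 3). Of the 4 LITTLE ZIPPER genes 2 were tested. Of the 4 KANADI genes, KAN1 rose and KAN4 fell in ATHB25/REM7-ind (-0.47, adjusted p = 2.09e-05). INO and CRC, the remaining YABBY genes, did not pass the filter in any group.

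Abaxial auxin response factors and their small-RNA pathway moved little. ARF4 fell by 0.39 in ATHB25/REM7-ind (adjusted p = 5.08e-05) and by 0.40 in ISH1, and of the 3 factors 1 rose and 2 fell in ATHB25/REM7-ind. AGO7, which acts in the trans-acting siRNA pathway that targets ARF4 and ETT, rose by 0.55 in ATHB25/REM7-ind (adjusted p = 2.55e-05) and fell by 0.64 in ISH1 and by 0.59 in ISH2. In that list of 9 genes, 2 rose and none fell in ATHB25/REM7-ind. Of 5 co-repressors that bind YABBY proteins, none rose and 1 fell.

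The genes of the leaf margin and middle domain were read because they are set where the 2 leaf sides meet. KLU, a cytochrome P450 of organ growth, fell by 2.88 ± 0.17 in ATHB25/REM7-ind (SE, adjusted p = 4.70e-11) and by 2.03 in ISH1, and rose by 1.90 in ISH2. PRS, a WOX gene of the leaf margin, was not above background in uninduced ATHB25/REM7-ind and rose at least 2.19-fold (adjusted p = 1.04e-05). In ISH1 it stood at -5.60 ± 0.18 (SD, n = 3) with estradiol, at least 7.38-fold above the control. WOX1 rose at least 1.30-fold in ATHB25/REM7-ind (adjusted p = 0.0467). PRS and WOX1 passed the filter only through ISH1 and ATHB25/REM7-ind with estradiol, so their p-values only describe the gaps. Of the 5 genes listed, 3 were tested.

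**Figure D5:**
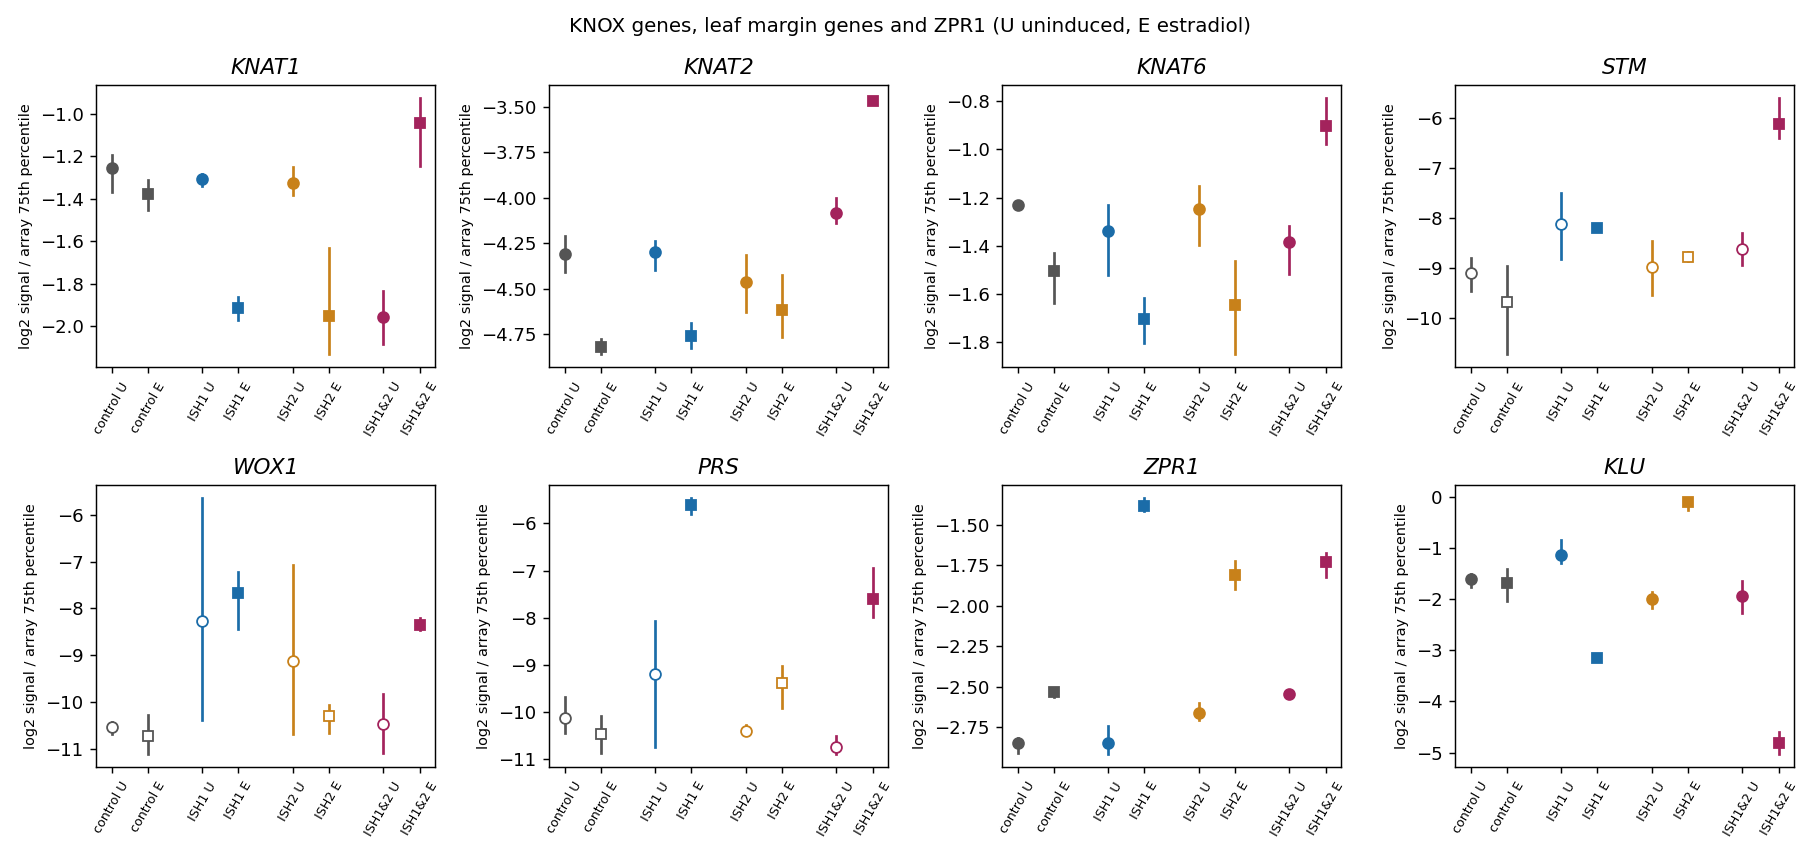
Group means of the level (log2 relative to the 75th percentile of the array) of KNAT1, KNAT2, KNAT6, STM, WOX1, PRS, ZPR1 and KLU in the 8 groups, with lines from the lowest to the highest of 3 arrays. Open symbols mark groups in which not all 3 arrays were above background. The KNOX genes rise in ATHB25/REM7-ind, and KLU falls in ATHB25/REM7-ind and ISH1 and rises in ISH2.

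Mesophyll markers rose with AS2, YAB2 and YAB5 in ATHB25/REM7-ind. Of all genes, 36.4% fell in ISH1 and 21.9% in ISH2, and 31.6% rose in ATHB25/REM7-ind. All 9 mesophyll markers rose there, against none in the control, 1 up and 5 down in ISH1 (4 down without uninduced replicate 1) and 7 down in ISH2. Their summed signal, in units of the array's 75th percentile, was 24.5 to 30.4 without and 115 to 121 with estradiol in ATHB25/REM7-ind. In ISH2 with estradiol, where PHV was high, it was 3.32 to 4.81. In uninduced ISH1, where all 4 YABBY genes were detected, it was 26.4 to 29.5, overlapping the 22.8 to 28.9 of the uninduced control. All 9 were above background on every array, so none of the defining markers was absent from the roots. All 11 root markers were above background on every array too. Their summed signal was lower with estradiol in ATHB25/REM7-ind (27.7 to 31.7 without, 20.7 to 21.7 with) and in ISH1 (25.9 to 29.0 without, 18.5 to 22.0 with), with no overlap. In the control it was 23.8 to 28.2 without and 23.2 to 24.2 with estradiol, and in ISH2 26.4 to 28.3 and 22.9 to 27.2, so that these groups overlapped. A sum of signals mostly follows its brightest genes. Counted by gene, more root markers rose than fell in ATHB25/REM7-ind. In ISH1, 3 rose and 4 fell (2 and 4 without uninduced replicate 1). The part of leaf or root cells in the responses of the 10 genes was not tested. In whole roots, more cells of a type and more RNA per cell cannot be told apart, nor can fewer cells and less RNA.

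Over the 24 arrays, the pattern of each gene was compared with every gene that had a locus, as a description in which the points share lines, slides and normalisation. AT1G34640, KCS8 and AT3G16370 were most like AS2 (Pearson r = 0.976, 0.975 and 0.974). MYB106, AT4G27890 and AT5G20740 were most like YAB2 (0.932, 0.930 and 0.928), and KCS19, AT3G44970 and RGF9 were most like YAB5 (0.942, 0.941 and 0.937). For PHB these were AT5G25475, AT3G12650 and AT1G75060 (0.972, 0.967 and 0.967), and for PHV they were AT2G32760, AT4G32295 and CCP2 (0.896, 0.895 and 0.885). For REV, r was 0.868 with AT3G10770, 0.860 with AT2G03390 and 0.855 with emb2738.

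The nearest patterns to AS1 were those of RHON1, AT3G49140 and AT2G24060 (0.885, 0.883 and 0.868), and to KAN1 those of AT1G61730, AT2G35030 and AT3G49710 (0.884, 0.861 and 0.853). AT3G16670 came first for both FIL (0.899) and YAB3 (0.847), followed by AT3G05730 and AT3G16660 (0.863 and 0.852) for FIL and by AT5G57760 and AT4G23110 (0.845 and 0.844) for YAB3. Among the 10 genes themselves, r was 0.870 between YAB2 and YAB5, 0.835 between FIL and YAB3, 0.617 between AS2 and YAB5, and 0.615 between AS1 and REV, while PHB ran against YAB2 (-0.646) and AS2 (-0.627). FIL and YAB3 were above background on 3 and 6 of the 24 arrays. Without ISH1 uninduced replicate 1, their r was 0.570, and AT3G16670 gave 0.747 with FIL and 0.455 with YAB3, while YAB2 and YAB5 gave 0.848 over the same 23 arrays.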

How the data were processed

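Total RNA from roots was labelled with Cy3 and hybridised to 1-colour Agilent arrays, 3 per group. The deposited scanner files hold processed intensity values from Feature Extraction 10.7.3.1, with background flags, and the authors' methods name GeneSpring GX 12 and R 3.2.1. The deposited table of log2 values, shifted to the 75th percentile and centred on each probe's median by the authors, correlated with the values used here at r of 0.99992 or above and was not tested.

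Here the log2 of the processed signal minus each array's 75th percentile was used. After 346 flagged spots were dropped, spots of a probe were averaged, leaving 238 missing probe values, and no spot was saturated. A probe was kept where some group (1 or more of 8) had it well above background in all its 3 replicates, which left 36573 of 43603. RefSeq names gave 34348 probes a locus, and the probe with the highest mean level stood for a gene. limma 3.58.1 in R 4.3.3 was fitted over all 24 arrays in 8 groups without a block, two-sided, with Benjamini-Hochberg adjustment over 27816 genes, and was tested on simulated data. The 75th percentile of the signal was 4577 to 6427, and 3 arrays per group limit the precision. Alternatives were other normalisations, background corrections, filters, probes, variance models, slide and replicate blocks, and leaving out arrays. Same-numbered replicates correlated at -0.035 to 0.099 in their deviations from group means, so the numbers were not taken to pair the samples.

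The 10 genes and the lists of related genes (15 lists, of class III and class II homeodomain-leucine zipper, KANADI, YABBY, LITTLE ZIPPER, abaxial ARF, small-RNA, KNOX, co-repressor, margin and TCP genes and of mesophyll, stomatal, xylem and root markers) were chosen with earlier results of these data known. All 10 genes were named with every probe, up to 3 called members of a list with the largest change in ATHB25/REM7-ind, and the 3 genes most like each member. Additional members are named for context.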

Additional observations from a re-analysis of the deposited data

Results flagged for a closer look

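For each of the 10 genes at least 1 difference between the responses of 2 lines passed the test of the difference itself and so deserves a second look, in 23 comparisons in all. Differences are log2 responses of the first line minus the second. Against the control, ATHB25/REM7-ind responded by 2.1 more for AS2, 3.70 for YAB2 and 4.73 for YAB5, and by -0.31 for PHB. ISH1 differed from the control by -0.33 for AS1, 0.37 for KAN1, -2.98 for FIL, -2.48 for YAB3 and -0.34 for PHB, of which KAN1 and YAB3 (-1.48) did not pass without ISH1 uninduced replicate 1 (adjusted p = 0.0611 and 0.0601, limma). FIL was at -2.20 without that array (adjusted p = 0.00321). ISH2 differed from the control by 0.58 for PHV.

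ATHB25/REM7-ind differed from ISH1 by 0.43 for AS1, 2.30 for AS2, 3.90 for FIL, 3.20 for YAB2, 5.76 for YAB5 and 0.26 for REV. Without ISH1 uninduced replicate 1, FIL was at 3.12, YAB2 at 2.40 and YAB5 at 4.92. It differed from ISH2 by 0.30 for AS1, 1.72 for AS2, 3.60 for YAB2, 4.94 for YAB5, -0.27 for PHB, -0.59 for PHV and 0.22 for REV. Differences of the 4 YABBY genes involve groups below background and are fitted values only.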

How the results depend on the processing

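Over 41 settings, 4820 of 4979 alternative values for single genes stayed on the same side of the threshold. Of the rest, 123 lost a call and 36 gained one, and 0 changed sign with a call in either fit. Where neither fit gave a call the sign was not compared, and for some of these values it differed. Counts below are of the 10 genes, and causes were not tested except that leaving out genes or arrays leaves fewer to call. The share of all genes was not taken under each setting, so these counts only show what a setting changed. The replicate number as a block and the slide as a random block (correlation 0.093) moved no count by over 1.5 times, and the replicate block left ATHB25/REM7-ind at 4 higher and 1 lower. The numbers did not pair the samples, and the block changed no call. With the slide as a fixed block, the excess of YAB2 over the sum no longer passed (adjusted p = 0.0667).

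With a call that also needs 2-fold, the counts higher and lower were 0 and 2 in ISH1 and 0 and 0 in ISH2. They were 0 and 2 in ISH1 against the control and 3 and 0 in ATHB25/REM7-ind against ISH2. The 2 lower in ISH1 were FIL and YAB3, which passed the filter only through uninduced ISH1. None was higher in ISH2 against the control, and none was lower in ATHB25/REM7-ind, alone, against the control or against the sum. Over probes above background on all 24 arrays, 3 fell in ISH1 and 2 in ISH1 against the control, 2 rose in ATHB25/REM7-ind, 1 against the control and 3 each against ISH1, ISH2 and the sum, and 0 were higher in uninduced ISH1. With only the arrays of a comparison, 0 rose and 3 fell in ISH1, 1 fell in ISH2, and 0 were higher in ISH1 against the control or in uninduced ISH1. With normexp, added in this form after seeing the data, 2 were lower in ISH1 against the control, 1 in ATHB25/REM7-ind against ISH2, 0 against the sum and 1 without estradiol, and 0 were higher in uninduced ISH1. Without ISH1 uninduced replicates 1 and 2, also added, 3 fell in ISH1, 2 against the control, and 0 were higher in uninduced ISH1. The second-ranked probe of a gene gave 1 rise in ISH2, 0 in ISH1 against the control and 0 below the sum, and the one ranked after it gave 1 fall in the control and 2 in ATHB25/REM7-ind. In ISH1 against the control 0 were higher with quantile normalisation or without the 2 control arrays of contradictory description. Trend and robust variances gave 2 higher in ISH2 against the control, a pseudocount of 16 gave 1 and a floor 0 higher in uninduced ISH1.

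When each of 24 arrays was left out in turn, falls numbered 0 to 1 in the control, 4 to 6 in ISH1, 1 to 3 in ISH2 and 1 to 1 in ATHB25/REM7-ind, and rises 0 to 1, 2 to 3 and 3 to 5 in the last 3. Against the control, 0 to 1 were higher and 3 to 5 lower in ISH1, 1 to 2 higher in ISH2 and 3 to 4 higher in ATHB25/REM7-ind. Against the sum, 5 to 6 were higher and 1 to 2 lower, and 1 to 4 were higher in uninduced ISH1. No scaling moved the median of all genes by over 0.1. Of the YABBY genes, groups below background carry only bounds, and 3 arrays per group limit all intervals.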

Other observations

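Genes of other lists also moved in ATHB25/REM7-ind, where 31.6% of all genes rose and 33.0% fell. Of 5 TCP genes that miR319 targets, which restrain growth of the leaf blade, TCP2 and TCP24 each fell by 1.59 (limma, adjusted p = 3.13e-12 and 4.47e-11), TCP4 rose by 0.59, and in all 2 rose and 2 fell. TCP2 and TCP24 moved in opposite directions in the single lines, falling by 0.34 and 0.66 in ISH1 and rising by 0.32 and 0.37 in ISH2. TCP2 also fell by 0.27 in the control (adjusted p = 0.0232). Its ISH1 response did not differ from the control's beyond the threshold (-0.07, adjusted p = 0.635). Of 6 tested genes of the stomatal lineage and shoot epidermis (7 listed), 4 rose and 1 fell. MUTE and SPCH, basic helix-loop-helix factors of the stomatal lineage, were below background in uninduced ATHB25/REM7-ind and rose at least 4.74-fold (adjusted p = 0.000132) and 2.82-fold (adjusted p = 3.64e-05), while PDF1, an epidermal gene, fell by 2.56 (adjusted p = 4.64e-13). MUTE and SPCH passed the filter only through ATHB25/REM7-ind with estradiol. Their p-values therefore only describe the gap, and their place among the 4 that rose is not independent support. Between 6 and 7 of the 7 were above background on ATHB25/REM7-ind arrays with estradiol, against 4 or 5 on all others. Their summed signal went the other way in ATHB25/REM7-ind, from 2.19 to 2.46 without estradiol to 1.64 to 1.71 with it, with no overlap.

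Among the 9 mesophyll markers, CA1 rose by 6.01, GLK1 by 2.90 and LHCA1 by 2.78 in ATHB25/REM7-ind. GLK1, a regulator of chloroplast development, also rose by 1.18 in ISH1 (adjusted p = 2.30e-05). It was the only 1 of the 9 that rose there, and 5 fell (4 without uninduced replicate 1). Of 9 xylem and procambium genes 1 rose and 6 fell, and of 11 root markers 5 rose and 2 fell, the 2 being CASP1 (-1.16) and CASP2 (-1.47) of the Casparian strip. Of 5 class II homeodomain-leucine zipper genes 2 rose and 2 fell. HAT3 fell by 0.68, and ATHB4, which rose by 0.57, also went from -4.21 ± 0.05 to -2.66 ± 0.05 (SD, n = 3) in the control. Against the control's response, that of ATHB4 in ATHB25/REM7-ind was thus lower (-0.99, limma, adjusted p = 2.83e-07).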
